A study of Mus musculus with 6 samples.

Results

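10 genes of the Wnt pathway were followed by name through 6 RNA-seq libraries of mouse left ventricle: 7 that encode secreted inhibitors (Sfrp1, Sfrp2, Sfrp4, Sfrp5, Frzb, Wif1 and Dkk2) and 3 that encode Frizzled receptors (Fzd1, Fzd2 and Fzd4). They are 10 of the 34745 genes listed in each library, and 8 of them were among the 13940 genes with enough counts to be tested. The set was chosen by measured values: the log2 change of MI-DAPA against MI-NS, in which Sfrp2 fell and Wif1 rose. Values of the 10 genes in that comparison are therefore a description, and nothing is supported by the fact that they differ; their p-values, adjusted over all tested genes, are part of that description and no independent test.

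All mice had a myocardial infarction (MI), in which heart muscle dies after losing its blood supply, and RNA came from left ventricle tissue. The group MI-DAPA received dapagliflozin, a drug that blocks the kidney's sodium-glucose transporter SGLT2, and the group MI-NS, whose abbreviation the labels do not spell out, served as control. Each group holds 3 libraries that the labels call biological replicates. The labels used here give no strain, age, dose, treatment time or pooling of animals, so p-values reflect the scatter among these 6 libraries, which may be partly technical. Libraries held 17207974 to 20563188 counts. Markers of cardiomyocytes were all present (10 of 10 tested), with a summed level of 43565 to 46081 CPM (counts scaled to the library size after TMM adjustment) in MI-NS and 53445 to 57217 CPM in MI-DAPA. In bulk tissue, fewer cells of a type and less RNA per cell cannot be told apart.

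Wnt proteins are secreted lipid-bearing ligands that bind Frizzled receptors together with the coreceptors Lrp5 and Lrp6. In the canonical branch this binding stabilises beta-catenin, which turns on target genes in the nucleus, while other branches act on cell polarity and calcium. Secreted frizzled-related proteins (Sfrp1, Sfrp2, Sfrp4, Sfrp5 and Frzb, also called Sfrp3) carry a cysteine-rich domain like that of the Frizzled receptors and can bind Wnt proteins outside the cell, Wif1 binds Wnt proteins through a WIF domain, and Dkk2 binds the Lrp coreceptors. In the injured heart this pathway is known for its part in fibroblast activation and scar formation.

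Among the 8 tested genes 3 fell (Sfrp2, Frzb and Sfrp1) and 1 rose (Wif1) in MI-DAPA (edgeR quasi-likelihood test, adjusted p under 0.05 after Benjamini-Hochberg correction across all genes tested). Of all tested genes 7.83% fell and 8.69% rose by this test. The median log2 change was -0.62 over the 8 tested members and -0.02 over all tested genes. The count of members that fell was 5 without MI-NS replicate 2, when Fzd1 and Fzd2 passed as well. With replicate 3 of both groups left out, whose files are named in another style, each group kept 2 libraries. In that fit 0 members passed in either direction, and 24 of all genes did against 2304 with all libraries. Genes with an unadjusted edgeR p under 0.05 numbered 3120, against 4499 with all libraries. Replicate 1 or 2 of both groups was not left out in the same way. Replicate 3 had the highest mitochondrial share of counts in each group (42.0% in MI-NS and 40.7% in MI-DAPA), against 34.3% to 37.6% in the other libraries. In 5 of the 8 the 3 MI-DAPA libraries all lay below the 3 MI-NS libraries and in 1 all lay above, against 18.5% and 18.4% of all tested genes (37% in either direction).

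**Figure D1:**
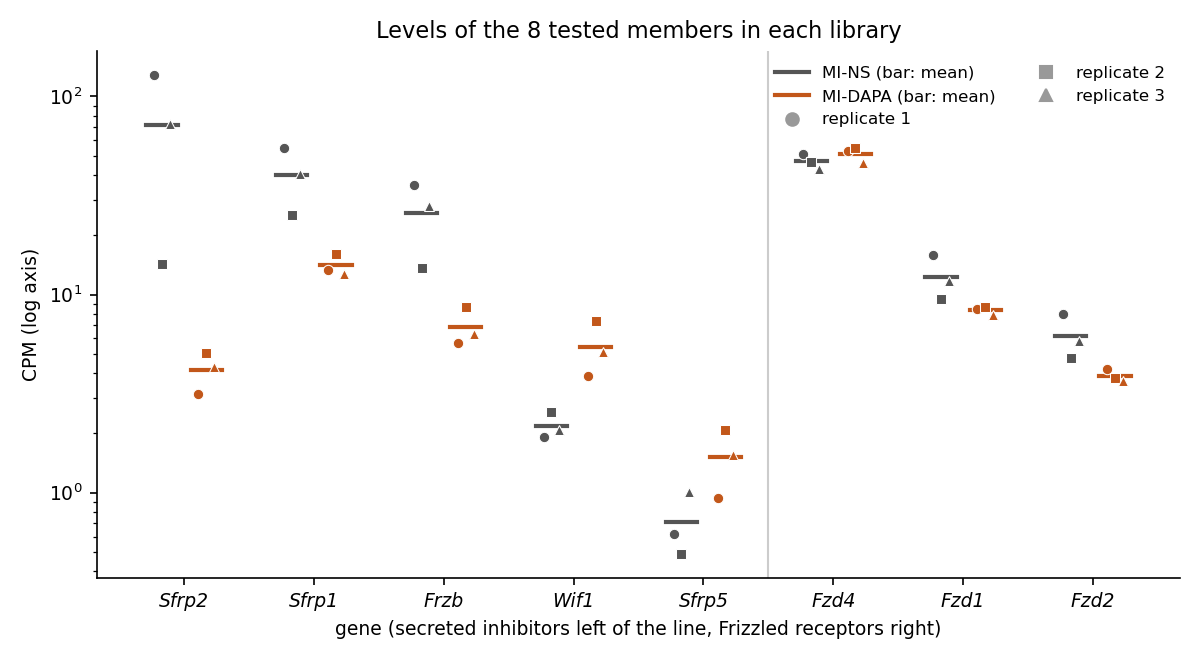
Level of each tested gene in each library in CPM (log axis); points are libraries, bars are group means, grey is MI-NS and orange is MI-DAPA. Sfrp2, Sfrp1 and Frzb sit lower and Wif1 sits higher in every MI-DAPA library, Fzd4 overlaps, and the 3 MI-NS points of Sfrp2 spread from 14.3 to 128.8 CPM.

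Sfrp2 (chromosome 3, 83766321 to 83774316 on mm10, plus strand), a frizzled-related protein made by fibroblasts, had the lowest MI-DAPA level relative to MI-NS of the set. Its levels were 128.8, 14.3 and 72.8 CPM in MI-NS replicates 1 to 3 and 3.13, 5.07 and 4.31 CPM in MI-DAPA replicates 1 to 3. The groups did not overlap, but replicate 2 of MI-NS lay closer to the MI-DAPA libraries than to MI-NS replicate 1 in CPM. The group means were 72.0 ± 57.2 and 4.17 ± 0.978 CPM (SD, n = 3), a fitted 17.3-fold fall (log2 change -4.11 ± 0.70 SE, edgeR adjusted p = 0.00756). Only 1 of the 13940 tested genes had a larger log2 change in either direction. The log2 change was -3.37 without MI-NS replicate 1 and -4.59 without MI-NS replicate 2, and the call held with any single library left out. The gene overlaps the listed gene Gm26771 on the other strand, which had 0 counts in all 6 libraries.

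Frzb (chromosome 2, 80411970 to 80447625, minus strand), known in cartilage and scar matrix cells, had 35.7, 13.7 and 28.1 CPM in MI-NS replicates 1 to 3. It had 5.66, 8.62 and 6.32 CPM in MI-DAPA replicates 1 to 3, all below the lowest MI-NS library. It fell 3.75-fold (log2 change -1.91 ± 0.33 SE, edgeR adjusted p = 0.00756). Sfrp1 (chromosome 8, 23411502 to 23449632, plus strand), another frizzled-related protein, had 55.1, 25.2 and 40.5 CPM in MI-NS. In MI-DAPA it had 13.4, 16.1 and 12.7 CPM, and the groups did not overlap. It fell 2.87-fold (log2 change -1.52 ± 0.25 SE, edgeR adjusted p = 0.00682). In all 3 genes that fell, replicate 1 was highest and replicate 2 lowest in MI-NS, and replicate 2 was highest in MI-DAPA.

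Wif1 (chromosome 10, 121033960 to 121100650, plus strand), which encodes Wnt inhibitory factor 1, moved the other way. It had 1.91, 2.55 and 2.08 CPM in MI-NS (43, 52 and 35 counts) and 3.88, 7.38 and 5.11 CPM in MI-DAPA (78, 150 and 89 counts). Each MI-DAPA library lay above each MI-NS library, with replicate 2 highest in both groups. It rose 2.5-fold (log2 change 1.32 ± 0.26 SE, edgeR adjusted p = 0.0132), and the call held with any single library left out. Sfrp5 (chromosome 19, 42197971 to 42202252, minus strand), a frizzled-related protein known from adipose tissue, was near the limit of what could be tested. Its reads numbered 14, 10 and 17 in MI-NS, against 19, 42 and 27 in MI-DAPA, so that MI-NS replicate 3 (1.01 CPM) lay above MI-DAPA replicate 1 (0.944 CPM). Its log2 change of 1.12 ± 0.40 (SE) did not pass (edgeR adjusted p = 0.0907).

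Sfrp4 and Dkk2 had too few counts to be tested. Sfrp4 (chromosome 13, 19623175 to 19632821) was counted 11, 2 and 6 times in MI-NS libraries and 0, 9 and 5 times in MI-DAPA, too few for a difference to be detectable at this depth. Dkk2 (chromosome 3, 132085292 to 132180304) was counted 7, 3 and 9 times in MI-NS libraries and 1, 1 and 2 times in MI-DAPA. Every MI-DAPA library was under the floor of 3 counts (0.133 to 0.178 CPM, for counting error only), and with no filter on low counts Dkk2 had an edgeR adjusted p of 0.179.

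The promoter windows of Sfrp2, Frzb and Wif1 are shown because these genes passed the test in opposite directions. Each runs from 250 bases before to 50 bases after the RefSeq transcription start on GRCm38.p6 and is written 5′ to 3′ on the gene's strand. RefSeq windows were matched for 7 of the 10 genes; those of Sfrp1, Sfrp4 and Fzd2 are not shown. Capitals mark matches, on either strand, to the motifs CTTTGA (the TCF/LEF core, bound by partners of beta-catenin), TGANTCA (the AP-1 motif), GGGCGG (the box of the Sp1 family), CCAAT (the motif of NF-Y) and TATAAA (the motif of TATA-binding protein). No 2 different motifs overlapped in these 7 windows (0 pairs).
Sfrp2 (chr3:83766071-83766370, plus strand): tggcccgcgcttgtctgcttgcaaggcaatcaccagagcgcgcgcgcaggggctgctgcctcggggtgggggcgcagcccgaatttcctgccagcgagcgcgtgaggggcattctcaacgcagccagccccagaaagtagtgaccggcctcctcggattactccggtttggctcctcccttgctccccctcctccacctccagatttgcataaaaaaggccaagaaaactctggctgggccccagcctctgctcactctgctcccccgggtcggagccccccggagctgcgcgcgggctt
Frzb (chr2:80447347-80447646, minus strand): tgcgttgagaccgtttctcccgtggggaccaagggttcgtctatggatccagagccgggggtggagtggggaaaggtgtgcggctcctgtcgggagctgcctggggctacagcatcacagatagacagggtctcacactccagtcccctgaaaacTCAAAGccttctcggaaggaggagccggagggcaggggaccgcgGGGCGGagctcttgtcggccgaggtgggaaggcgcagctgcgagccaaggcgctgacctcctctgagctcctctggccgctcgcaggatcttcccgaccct
Wif1 (chr10:121033754-121034053, plus strand): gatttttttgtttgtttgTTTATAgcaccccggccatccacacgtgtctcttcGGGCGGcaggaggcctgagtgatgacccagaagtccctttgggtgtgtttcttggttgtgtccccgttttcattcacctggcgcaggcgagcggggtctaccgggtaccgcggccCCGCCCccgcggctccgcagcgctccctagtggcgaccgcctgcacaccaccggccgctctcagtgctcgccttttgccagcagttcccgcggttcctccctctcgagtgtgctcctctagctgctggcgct
The Sfrp2 window holds none of the 5 motifs. The Frzb window holds a TCF/LEF core whose first base lies at -95 from the start and an Sp1 box at -51. The Wif1 window holds Sp1 boxes at -197 and -82 and a TATA motif at -232, and no TCF/LEF core. The TCF/LEF core was found in 2 of 7 windows (Frzb and Fzd1), against 16% of all 32851 promoter windows. The Sp1 box was in 5 of 7, against 35.7%, the NF-Y motif in 3 of 7, against 37.4%, the TATA motif in 3 of 7, against 13.6%, and the AP-1 motif in 0 of 7, against 7.81%. The 3 windows shown are rich in G and C (66%, 64.7% and 63%, against a median of 52.7% over all windows). A match is a run of letters and not a shown binding site, and a missing match says only that these letters are not in this window.

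Among the receptors, Fzd4 (chromosome 7, 89404366 to 89410110, plus strand), which is known for vessel growth and also binds Norrin, was the most abundant and differed little. It had 51.4, 46.6 and 43.2 CPM in MI-NS and 53.0, 54.8 and 46.4 CPM in MI-DAPA, with overlapping groups (log2 change 0.13 ± 0.10 SE, edgeR adjusted p = 0.417). Fzd1 (chromosome 5, 4753839 to 4758035, minus strand) had 15.8, 9.52 and 11.6 CPM in MI-NS and 8.50, 8.62 and 7.93 CPM in MI-DAPA. Fzd2 (chromosome 11, 102604396 to 102608058, plus strand) had 7.99, 4.81 and 5.82 CPM in MI-NS and 4.22, 3.79 and 3.68 CPM in MI-DAPA. Fzd1 and Fzd2 are single-exon genes whose receptors serve both canonical and other Wnt branches. In both genes the MI-DAPA libraries lay below all MI-NS libraries and MI-NS replicate 1 was highest. Neither passed the edgeR test with all libraries, nor DESeq2, though both had an unadjusted edgeR p under 0.05 (Fzd1 -0.56 ± 0.18, adjusted p = 0.0676; Fzd2 -0.67 ± 0.21, adjusted p = 0.0584; log2 change with SE). Without MI-NS replicate 2 both passed, with log2 changes of -0.71 for Fzd1 (edgeR adjusted p = 0.0263) and -0.82 for Fzd2 (edgeR adjusted p = 0.0342).

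Levels were compared between genes as CPM per kilobase of annotated exon. For Fzd4 the annotated exon length (6720 bases) is longer than the counted locus (89404366 to 89410110). Its values per kilobase may therefore be too low, and its place behind Frzb in the MI-NS order is uncertain. In MI-NS the order of the group means was Sfrp2 (33.4 ± 26.6), Sfrp1 (9.21 ± 3.42), Frzb (7.98 ± 3.45), Fzd4 (7.0 ± 0.611), Fzd1 (2.94 ± 0.761), Fzd2 (1.69 ± 0.443), Wif1 (0.898 ± 0.137) and Sfrp5 (0.372 ± 0.142; SD, n = 3). The first 4 genes of this order overlapped in range, since Sfrp2 spanned 6.65 to 59.8 CPM per kilobase. In MI-DAPA the order was Fzd4 (7.65 ± 0.659), Sfrp1 (3.21 ± 0.406), Wif1 (2.25 ± 0.733), Frzb (2.12 ± 0.479), Fzd1 (1.99 ± 0.0873), Sfrp2 (1.94 ± 0.454), Fzd2 (1.06 ± 0.0786) and Sfrp5 (0.801 ± 0.296; SD, n = 3). There Sfrp1 overlapped in range with Wif1, as did Wif1, Frzb, Fzd1 and Sfrp2 with each other and Fzd2 with Sfrp5, while Fzd4 lay above all other members in each MI-DAPA library.

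Among the 7 listed inhibitors, Sfrp2 made up most of the summed RNA in 2 of 3 MI-NS libraries and about as much as Wif1 in MI-DAPA. Summed over the 7 genes, inhibitor RNA was 84.8, 18.0 and 53.4 CPM per kilobase in MI-NS replicates 1 to 3, against 8.37, 12.9 and 9.88 in MI-DAPA replicates 1 to 3. Sfrp2 was the most abundant of these 7 in each MI-NS library, with 70.6%, 36.9% and 63.4% of the sum. Sfrp1 was the most abundant in each MI-DAPA library, with 36.5%, 28.4% and 29.4%, and Sfrp2 took 17.4%, 18.2% and 20.3%. Wif1 took 0.927%, 5.83% and 1.61% of the sum in MI-NS, against 19.1%, 23.5% and 21.3% in MI-DAPA. Per kilobase, Sfrp2 was 76.1, 6.33 and 39.5 times the level of Wif1 in MI-NS and 0.911, 0.774 and 0.950 times in MI-DAPA. The share of Frzb overlapped between the groups, from 13.0% to 23.5% in MI-NS and from 19.8% to 20.9% in MI-DAPA. Summed RNA of the 3 Frizzled genes was 10.5 to 13.6 CPM per kilobase in MI-NS and 9.79 to 11.2 in MI-DAPA. In every MI-NS library it was below the inhibitor sum, and in MI-DAPA replicate 1 it was above it (11.1 against 8.37). In MI-DAPA replicates 2 and 3 it was below (11.2 against 12.9, and 9.79 against 9.88). Both sums cover only the members, so which is larger depends on the list. It also depends on the exon length used for Fzd4, which is longer than its counted locus and may make the Frizzled sum too low. Which sum was larger in MI-DAPA replicates 2 and 3 is therefore uncertain. Fzd6, for example, is outside the Frizzled sum, with means of 23.0 CPM in MI-NS and 21.0 CPM in MI-DAPA. The inhibitor shares also leave out other extracellular inhibitor genes, such as Igfbp4. It had 64.7, 94.8 and 109.4 CPM in MI-NS and 65.5, 34.9 and 71.8 CPM in MI-DAPA. All these shares follow from the same contrast by which the genes were picked.

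**Figure D2:**
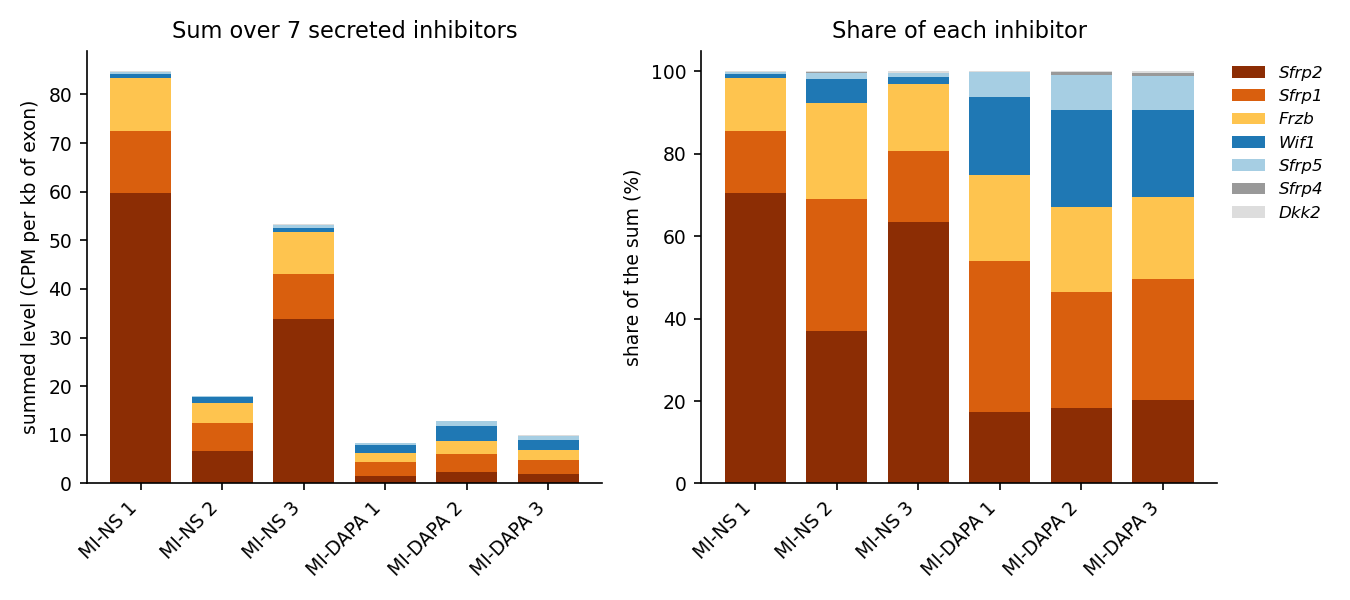
RNA of the 7 secreted inhibitors in each library, as summed CPM per kilobase of exon (left) and as the share of each gene in percent (right). Sfrp2 takes 36.9% to 70.6% in MI-NS and 17.4% to 20.3% in MI-DAPA, and Wif1 takes 0.927% to 5.83% and 19.1% to 23.5%.

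Several lists of cell type markers also differed between the groups. Of 10 fibroblast markers 7 fell and 0 rose (edgeR, over all genes; median log2 change -0.71), and their summed level was 3369 to 4184 CPM in MI-NS and 2161 to 2496 CPM in MI-DAPA. Of 10 activated fibroblast markers 9 fell and 0 rose (median -1.45; 796.5 to 1064 against 314.4 to 419.9 CPM). Of 6 matrifibrocyte markers, genes of the matrix-producing cells of mature scars, 4 fell and 0 rose (median -2.04; 262.3 to 618.5 against 91.3 to 146.6 CPM). Cardiomyocyte markers had 6 rises and 0 falls of 10 (median 0.34). Of 10 endothelial markers 5 fell and 0 rose (median -0.31), and of 10 macrophage markers 4 fell and 0 rose (median -0.37). Over all tested genes 7.83% fell and 8.69% rose. How the marker calls held with libraries left out was not examined. The part of these cell types in the levels of the inhibitors was not tested.

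Set against the mean log2 CPM of the fibroblast markers of the same library, Sfrp2 lay at -0.69, -3.38 and -1.31 in MI-NS and at -4.89, -4.47 and -4.56 in MI-DAPA. On this relative log2 scale the groups did not overlap, and the mean difference was -2.85. It follows in part from the contrast by which Sfrp2 was picked. The same difference was -1.04 for Frzb, -0.68 for Sfrp1, 0.14 for Fzd2, 0.24 for Fzd1, 0.90 for Fzd4, 1.76 for Sfrp5 and 2.02 for Wif1. Relative to the cardiomyocyte markers the difference was -3.93 for Sfrp2, -2.12 for Frzb, -1.76 for Sfrp1 and -0.94 for Fzd2. For the others it was -0.84 (Fzd1), -0.19 (Fzd4), 0.68 (Sfrp5) and 0.93 (Wif1). Set against the activated fibroblast markers it was -2.08 for Sfrp2, -0.27 for Frzb and 0.09 for Sfrp1. In that comparison Sfrp1 overlapped between the groups (-0.40 to 0.16 in MI-NS and -0.31 to 0.25 in MI-DAPA), as did Frzb (-1.27 to -0.47 and -1.31 to -0.92), and Sfrp2 did not (-1.21 to 1.38 and -1.85 to -1.67).

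**Figure D3:**
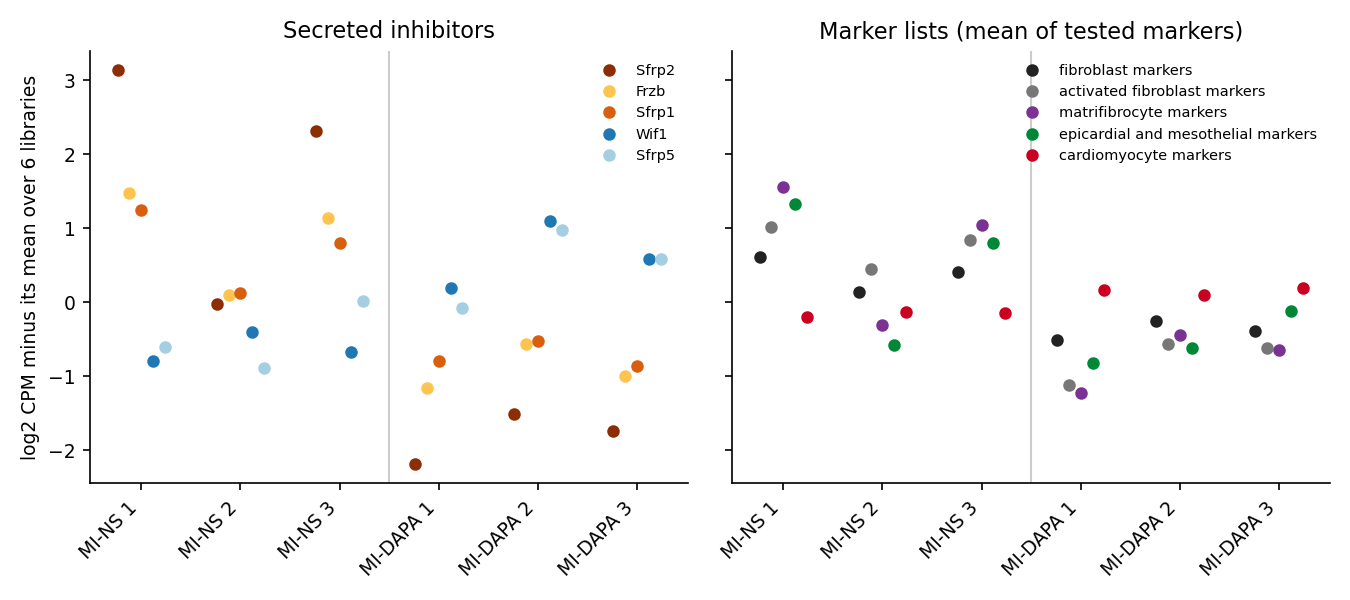
Log2 CPM of 5 secreted inhibitors (left) and mean log2 CPM of 5 marker lists (right) in each library, each centred on its own mean over the 6 libraries. Sfrp2, Frzb, Sfrp1 and the fibroblast, activated and matrifibrocyte lists have their highest value in MI-NS replicate 1, and within MI-NS their lowest in replicate 2; Wif1 and Sfrp5 are highest in MI-DAPA replicate 2.

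MI-NS replicate 2, which was lowest in Sfrp2 within its group, was also lowest there in matrifibrocyte markers (mean log2 CPM 3.85, against 5.71 and 5.21 in replicates 1 and 3). It was likewise lowest in epicardial and mesothelial markers (0.81, against 2.71 and 2.18, from the 3 of 9 markers that could be tested) and in atrial markers (1.84, against 5.17 and 4.77). The summed atrial level differed less (1303 CPM, against 1536 and 1550). Fibroblast, activated fibroblast, pericyte and smooth muscle, macrophage, other leukocyte, adipocyte, and cartilage and valve means were lowest there too. Cardiomyocyte, endothelial, endocardial and Schwann cell means were not. In the atrial list Bmp10 had 0 counts in all libraries. MI-DAPA replicate 1 had a low atrial mean as well (1.72, against 4.36 and 4.09). Whether these values bear on the spread of Sfrp2 was not tested.

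Likeness of profile over the 6 libraries was measured as the root mean square difference between mean-centred log2 CPM, over the 11425 protein-coding genes whose mean log2 CPM reached 1. Closest to Sfrp2 was Comp, a thrombospondin-family matrix protein of cartilage and scar (difference 0.53), with 245.8, 74.7 and 153.8 CPM in MI-NS and 11.1, 22.9 and 15.7 CPM in MI-DAPA. Next were 1500015O10Rik (0.69) and the network collagen gene Col8a2 (0.69). Frzb (1.05) and Sfrp1 (1.26) were farther from Sfrp2 than these. Log2 changes of MI-DAPA over MI-NS were -3.25 for Comp, -2.83 for 1500015O10Rik and -2.88 for Col8a2. Closest to Wif1 were Slc41a3, a magnesium transporter gene (0.22), 2810474O19Rik (0.25) and Casq2, the calcium-binding protein of the cardiomyocyte sarcoplasmic reticulum (0.27). Casq2 had 262, 470.1 and 438.2 CPM in MI-NS and 550.9, 912.1 and 935.5 CPM in MI-DAPA. The likeness rests on 6 libraries that share the group difference.

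Of the rest of the pathway, 103 genes were listed by role and 72 could be tested; 7 rose and 3 fell (13.9%, against 16.5% of all tested genes), with a median log2 change of -0.01. The share is near that of all genes and says nothing particular about the pathway. The number that rose was 4 when MI-NS replicate 3 was left out, 3 when MI-DAPA replicate 1 was left out and 4 when libraries were scaled by totals alone, and the number that fell was 5 without MI-NS replicate 2. Values below are log2 changes with their SE from the same edgeR fit.

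Among 19 Wnt ligands 6 could be tested and 0 passed by edgeR or by DESeq2, with 1 at an unadjusted edgeR p under 0.05 (Wnt10b). Wnt5a, a ligand of the branches that do not use beta-catenin, had 4.42 ± 1.66 CPM in MI-NS and 5.47 ± 2.05 CPM in MI-DAPA (SD, n = 3; 0.29 ± 0.35), and its sign turned when replicate 3 of both groups was left out. Wnt9a had 5.83 ± 1.13 and 5.83 ± 0.621 CPM (0.00 ± 0.18). The secretion genes Porcn, which attaches the lipid to Wnt proteins (-0.31 ± 0.18), and Wls, which carries them to the surface (0.17 ± 0.14), did not pass; 0 of these 2 genes had an unadjusted edgeR p under 0.05, and 0 passed by DESeq2.

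Outside the cell, 2 of the 6 other tested inhibitor genes rose and 0 fell, while 4 had an unadjusted edgeR p under 0.05. Besides the 2 that rose, these were Dkk3 (-1.01 ± 0.34) and Igfbp4 (-0.64 ± 0.27), both lower in MI-DAPA without passing. Trabd2b, a membrane-bound protease that inactivates Wnt proteins, had 113.6, 103.1 and 107.8 CPM in MI-NS and 164.3, 158.6 and 168.7 CPM in MI-DAPA (0.60 ± 0.07, edgeR adjusted p = 0.00347). Kremen1, a receptor that works with Dkk proteins to remove Lrp6 from the surface, had 132.6, 120.5 and 123.7 CPM in MI-NS and 188, 167.5 and 170.5 CPM in MI-DAPA (0.48 ± 0.08, edgeR adjusted p = 0.00629). In both genes the groups did not overlap, and both calls held with any single library left out.

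Of the 6 other Frizzled genes tested 0 passed by edgeR or DESeq2, and 0 had an unadjusted edgeR p under 0.05. Of the 6 coreceptor and alternative receptor genes 0 passed by either tool, and 2 had an unadjusted edgeR p under 0.05 (Lrp5 and Ptk7). The values were -0.14 ± 0.08 for Fzd6, -0.23 ± 0.20 for Fzd7, 0.20 ± 0.07 for Lrp5 and 0.14 ± 0.08 for Lrp6. Of 3 tested genes of R-spondin signalling, which protects Frizzled receptors from turnover, 1 rose: the R-spondin receptor gene Lgr4 (17.3 ± 1.99 to 23.6 ± 2.19 CPM, SD, n = 3; 0.45 ± 0.11, edgeR adjusted p = 0.0305). It lost its call when replicate 2 or 3 of MI-NS, or replicate 1 or 3 of MI-DAPA, was left out, and when libraries were scaled by their totals alone. Lgr6 had 0.27 ± 0.11 and did not pass.

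Of 20 genes of the beta-catenin core 3 rose and 1 fell. Tle3, a corepressor of TCF factors, had 19.2, 18.2 and 20.4 CPM in MI-NS and 11.3, 13.1 and 12.1 CPM in MI-DAPA, a 1.58-fold fall (-0.66 ± 0.10, edgeR adjusted p = 0.00553). Pygo1, a coactivator of beta-catenin, rose 1.5-fold (0.58 ± 0.12, edgeR adjusted p = 0.0133), and the calls of both genes held with any single library left out. The signal transducer Dvl3 (0.38 ± 0.09) and the kinase gene Csnk1a1 (0.23 ± 0.06) rose with edgeR adjusted p of 0.0245 and 0.0464. Csnk1a1 lost its call whichever of the 6 libraries was left out, and Dvl3 when any 1 of MI-NS replicates 1 to 3 and MI-DAPA replicate 1 was; both lost it when libraries were scaled by their totals alone. Csnk1a1 also lost it with upper quartile factors (edgeR adjusted p = 0.0561) and with no filter on low counts (edgeR adjusted p = 0.0716).

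Of 10 tested beta-catenin target genes 2 fell and 0 rose. Nkd2, which encodes a Dishevelled-binding feedback inhibitor, had 13.2, 8.09 and 10.9 CPM in MI-NS and 2.39, 3.84 and 3.96 CPM in MI-DAPA. The groups did not overlap, and it fell 3.17-fold (-1.66 ± 0.24, edgeR adjusted p = 0.00544) with the call held under any single library left out. Myc, a growth regulator with many other inputs, had 5.74 ± 1.07 and 3.64 ± 0.104 CPM (SD, n = 3; -0.66 ± 0.18, edgeR adjusted p = 0.0410) and lost its call when replicate 2 or 3 of MI-NS, or any 1 replicate of MI-DAPA, was left out, and it did not pass by DESeq2 (adjusted p = 0.0582). Axin2, the most widely used target gene of the canonical branch and named here after its values were seen, had 1.95, 3.04 and 2.32 CPM in MI-NS and 2.88, 2.17 and 3.96 CPM in MI-DAPA. Its groups overlapped and it did not pass (0.30 ± 0.28, edgeR adjusted p = 0.508).

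Of 13 tested genes of the planar polarity and calcium branch 1 rose: Celsr1, a polarity cadherin (6.97 ± 0.358 to 10.6 ± 0.919 CPM, SD, n = 3; 0.60 ± 0.12, edgeR adjusted p = 0.0142), which lost its call without MI-DAPA replicate 1. The small GTPase genes Rhoa (-0.04 ± 0.07) and Rac1 (0.81 ± 0.40) did not pass. Rac1 had 62.9, 152.2 and 39.1 CPM in MI-NS against 147.6, 140.6 and 158.3 CPM in MI-DAPA, and without MI-NS replicate 2 it passed at 1.55 (edgeR adjusted p = 0.00470).

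**Figure D4:**
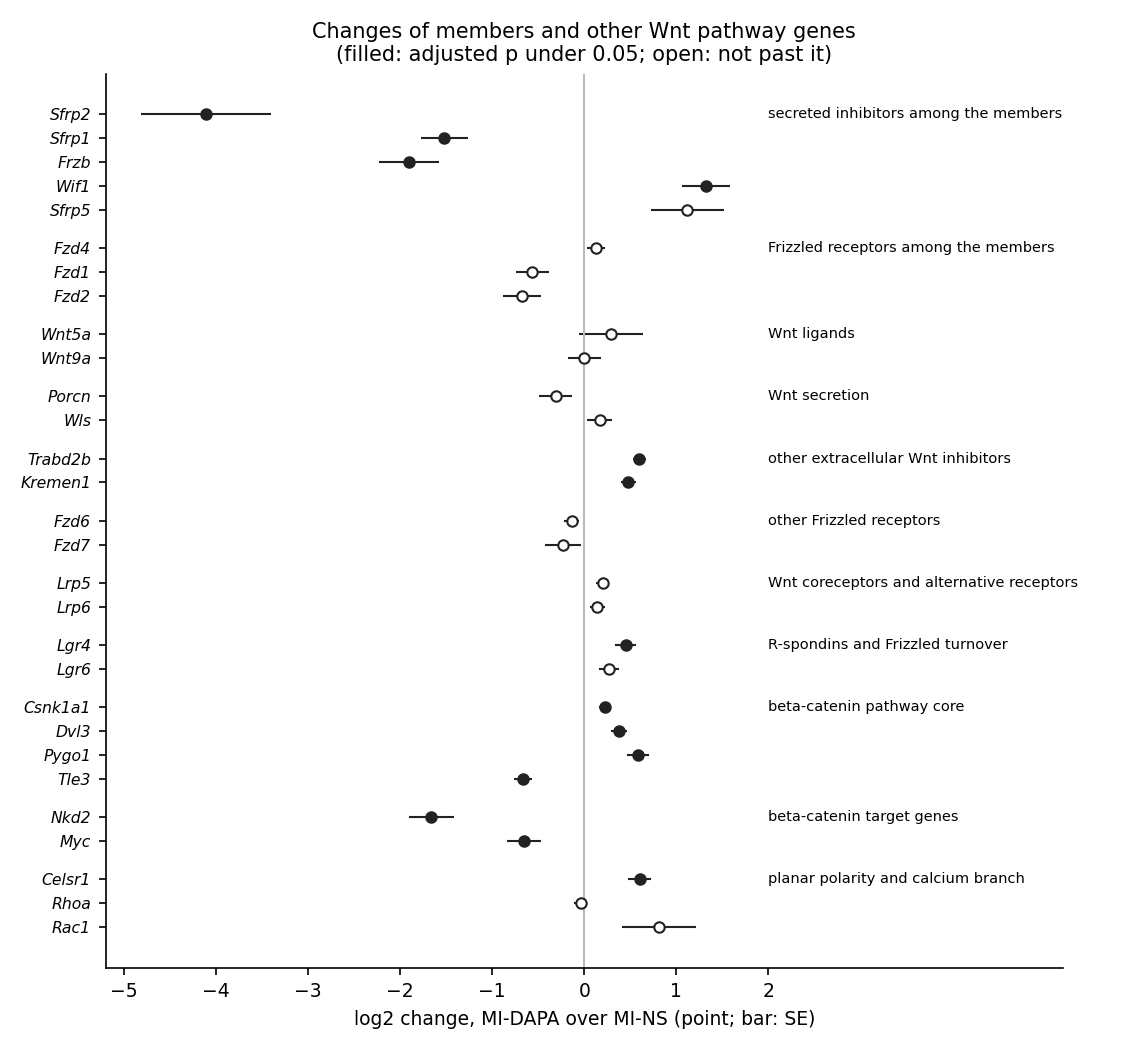
Log2 change of MI-DAPA over MI-NS with its SE for the 8 tested members and the named genes of the other pathway roles. Filled points passed the edgeR test with adjusted p under 0.05. Sfrp2 at -4.11 lies apart from the plotted pathway genes outside the set, which range from -1.66 (Nkd2) to 0.81 (Rac1). Genes named for a profile like that of Sfrp2 or Wif1 are not plotted.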

How the data were processed

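Raw read counts per gene were deposited by the authors, in 1 file per library. The submitters' processing notes name mm10, edgeR and StringTie 1.3.0; aligner, counting program and strand setting were not given in the sources used here. Without strand, reads of overlapping genes on either strand cannot be told apart. Date-like gene names (27) were restored by identifier, and exon lengths came from GENCODE M21.

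Counts were tested with edgeR 4.0.16 in R 4.3.3 (filterByExpr by group, minimum count 10 and minimum total 15; TMM; glmQLFit and glmQLFTest; Benjamini-Hochberg over 13940 genes; threshold 0.05). SE is the absolute log2 change over the square root of F; log2 CPM used a prior count of 2. Counts of any 2 libraries differed beyond sampling noise (lowest chi-square 9.94 per degree of freedom). The steps were tested on simulated data. Alternatives were other scalings, mitochondrial genes left out, no filter, DESeq2 1.42.0, a replicate block and libraries left out.

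Members and gene lists were chosen with earlier results of these data known. Named genes were all members, called pathway genes, the 2 most abundant tested genes of lists with under 2 calls, and the 3 profiles closest to Sfrp2 and Wif1. Of the pathway genes, Wnt10b, Ptk7, Igfbp4, Dkk3, Axin2 and Rspo1 fall outside this rule and were named with their values known. Of the marker lists only counts and levels are given. Lists for other leukocytes (2 of 8 tested, 0 called), Schwann cells (1 of 4 fell), adipocytes (0 of 1 called), pericytes and smooth muscle (1 rose and 3 fell of 10), endocardium (1 of 4 fell), atrium (1 rose and 1 fell of 5), epicardium (1 of 3 fell) and cartilage and valve (2 of 4 fell) were read as well.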

Additional observations from a re-analysis of the deposited data

How the results depend on the processing

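The direction of all 8 tested members held under every alternative run. The calls of Sfrp2, Frzb, Sfrp1 and Wif1 held under each except leaving out replicate 3 of both groups, which kept 2 libraries per group. There the log2 changes were -4.10, -1.77, -1.43 and 1.35 (edgeR adjusted p 0.0907, 0.0964, 0.0907 and 0.105), 0 members and 0 pathway genes passed in either direction, and 24 of all genes did (8 higher and 16 lower). With single libraries left out, log2 changes ranged from -4.59 to -3.37 (Sfrp2), -2.20 to -1.59 (Frzb), -1.76 to -1.21 (Sfrp1), 1.05 to 1.52 (Wif1), 0.84 to 1.44 (Sfrp5), -0.71 to -0.33 (Fzd1), -0.82 to -0.43 (Fzd2) and 0.07 to 0.22 (Fzd4). Calls ranged from 998 to 1863 for all genes (541 to 1087 higher and 457 to 844 lower), from 3 to 5 for members that fell, at 1 for members that rose, and for the pathway from 3 to 7 that rose and 2 to 5 that fell. Both ends of these ranges come from fits with 5 libraries. Scaling by library totals alone moved the median log2 change over all genes by -0.10, and 410 genes were higher and 1249 lower (1212 and 1092 with TMM), and 4 pathway genes rose. Signs turned for Wnt5a (-0.084 with replicate 3 of both groups left out), for Rhoa (0.032 there, and -0.076 to 0.0019 with single libraries left out) and for Wnt9a (-0.011 with upper quartile factors, -0.10 with library totals, -0.14 to 0.11 with single libraries left out, 3 of 6 positive); none of these had passed, and the cause was not tested.

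Replicate numbers are shared by the groups, but deviations of same-numbered libraries from their group means correlated by 0.04, -0.01 and 0.11, so they were not treated as pairs. The value for replicate 3 was the highest of any MI-NS and MI-DAPA pair. Other such pairs with a replicate 3 library had -0.097 to -0.013. Whether the replicate 3 libraries share a batch was not tested. With the replicate number as a block 2307 genes were called, 3 members fell and 1 rose, with log2 changes of -3.69 for Sfrp2 and 1.29 for Wif1; 7 pathway genes rose and 2 fell, and Csnk1a1 (edgeR adjusted p 0.0513) and Myc (0.0528) did not pass. Depth limits Sfrp4, Dkk2 and Sfrp5.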

Other observations

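The spread of Sfrp2 among the MI-NS libraries was itself unusual. Its highest MI-NS level was 8.99 times its lowest, against a median of 1.17 times over the 8061 tested genes with at least 10 CPM in MI-NS on average. Sfrp2 was 1 of 7 such genes with a range this wide, and with 72.0 CPM it was the most abundant of them. The other 6 were the atrial myosin light chain genes Myl7 (117 times) and Myl4 (13.8 times), Zfp260 (16.2), Gm20634 (15.2), Tmem127 (12.5) and 1500015O10Rik (10.04). These 6 were named after their values were seen, and Myl7 and Myl4 also belong to the atrial marker list. Of these, 1500015O10Rik is also among the 3 genes closest in profile to Sfrp2 over all 6 libraries. In MI-DAPA the highest Sfrp2 level was 1.62 times the lowest.

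The R-spondin gene Rspo1, which had too few counts to be tested, showed a similar layout in MI-NS, with 1.73, 0.147 and 0.832 CPM in replicates 1 to 3, and 0.0994, 0.295 and 0 CPM in MI-DAPA. Dkk3, a divergent member of the Dkk family, had 50.8, 21.4 and 33.6 CPM in MI-NS and 11.97, 25.2 and 15.3 CPM in MI-DAPA, overlapped between groups and did not pass (log2 change -1.01 ± 0.34 SE, edgeR adjusted p = 0.0743). Both were chosen after their values were seen.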
